A study of Mus musculus with 10 samples.

Results

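The 10 genes of airway ion transport followed here in mouse lung were chosen by name for their textbook roles in airway surface liquid, with earlier results of these data known. They are the anion channels and exchangers Cftr, Ano1, Slc26a4 and Slc26a9, the 3 subunits of the epithelial sodium channel (ENaC) Scnn1a, Scnn1b and Scnn1g, the chloride loader Slc12a2, the proton pump Atp12a and the ionocyte transcription factor Foxi1. These are 10 of the 47333 genes measured. Sequencing of RNA covered the right middle lobe in 10 mice, 5 lacking Bpifb1 (KO) and 5 wild type (WT), to learn how loss of this secreted airway protein changes gene expression in the resting lung. All 10 mice had a C57BL/6J background, were 12 weeks old, received no treatment and were housed with both genotypes in the same cages. The KO group held 1 male (replicate 1) and 4 females (replicates 2 to 5), and the WT group 2 males (replicates 2 and 3) and 3 females (replicates 1, 4 and 5). The labels do not give the nature of the KO allele or the litters. Replicate numbers only name the mice.

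The liquid that lines the airways is set by a balance of salt absorption and salt secretion. ENaC takes up sodium at the apical membrane, and water follows into the tissue; CFTR, ANO1 and SLC26A9 pass chloride outward, while SLC26A4 trades chloride for bicarbonate. SLC12A2 (NKCC1) brings in chloride at the basolateral side for those channels to release, ATP12A moves protons into the liquid, and FOXI1 directs the formation of ionocytes, rare airway cells rich in CFTR. In the lung, ENaC also clears liquid from the alveoli, so a whole lobe reads alveolar and airway cells together. In such bulk samples, fewer cells of a type and less RNA per cell cannot be told apart.

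Between 21357424 and 28321294 counts per mouse were assigned to genes. Values are CPM, that is, gene counts per 1000000 library counts after scaling, and errors are SD over mice. Bpifb1 (GRCm38 chromosome 2, 154190818 to 154220369) checked the genotype labels: its level was 0.614 ± 0.462 CPM in the KO mice and 59.7 ± 23.6 CPM in the WT mice (n = 5 each), and the groups did not overlap. Its log2 fold change was -6.55 (edgeR adjusted p 0.0275), and it was called in 9 of 18 alternative settings. A missing call in this test therefore does not show that a gene is unchanged. One label stood out. KO replicate 5, labelled female, had 1.78 CPM of Xist, the RNA that silences an X chromosome, against 274 to 407 CPM in the other 6 females and 1.29 to 1.73 CPM in the 3 males, yet it had 0 counts of Y-linked genes, of which the males had 2470 to 3441. It was kept as labelled. Values without it are given below for each tested gene of the set between genotypes and for some other results.

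Of the 10 genes, 8 had enough counts to be tested and 2 did not. Foxi1 (chromosome 11, 34204338 to 34208089, minus strand) had 0 counts in each of the 10 mice. Over all 10 libraries, 3 counts, taken as the smallest signal read as detected, equalled 0.0124 CPM, so a level up to that limit was not detectable at this depth. Atp12a (chromosome 14, 56365068 to 56388550, plus strand) had 1 count in KO replicate 1, 1 count in WT replicate 2 and 0 in the other mice, a total of 2 and below that limit. No fold change is given for either gene. These limits cover counting error only.

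The lack of Foxi1 counts was set beside other ionocyte genes. Ascl3, another ionocyte transcription factor, was low but had counts in all 10 mice, 45 in total and at most 7 per mouse, at 0.0869 to 0.259 CPM, and Moxd1 had 0.174 to 0.651 CPM. The 7 listed ionocyte markers summed to 104 to 120 CPM in KO mice and 108 to 124 CPM in WT mice. That sum came mostly from the proton pump subunits Atp6v1c2 at 50.6 to 62.1 CPM and Atp6v0d2 at 28.3 to 42 CPM, genes that other lung cells also use. Club cell markers, by contrast, summed to 24385 to 27358 CPM in the KO group and 24875 to 31876 CPM in the WT group, ciliated cell markers to 1593 to 1858 CPM and 1693 to 1888 CPM, alveolar type 1 markers to 4440 to 4925 CPM and 4782 to 5392 CPM, and alveolar type 2 markers to 23227 to 26396 CPM and 24101 to 28630 CPM. Markers of basal cells summed to at most 3.6 CPM. Tissue labelled as lung thus held airway and alveolar markers in every mouse, while of the ionocyte transcription factors Foxi1 was at 0 and Ascl3 was detected at a low level.

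Among the tested genes, the ENaC subunits were the most abundant per exon length. Scnn1a, the subunit that the channel needs to conduct, had a level of 109 ± 9.95 CPM per kb of exon (n = 10), above every other gene of the set in every mouse. Scnn1g followed at 51.5 ± 3.1 and Scnn1b at 48.4 ± 3.41 CPM per kb, and the ranges of these 2 overlapped. Ano1 stood at 21.2 ± 1.64 CPM per kb, clear of its neighbours on both sides. Slc12a2 at 9.84 ± 1.12 and Slc26a9 at 8.87 ± 0.637 CPM per kb overlapped each other. Slc26a4 at 1.8 ± 0.271 and Cftr at 1.38 ± 0.166 CPM per kb were the lowest of the detected genes and also overlapped. The order is a description, because exon lengths came from an annotation and not from the transcripts in use.

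**Figure D1:**
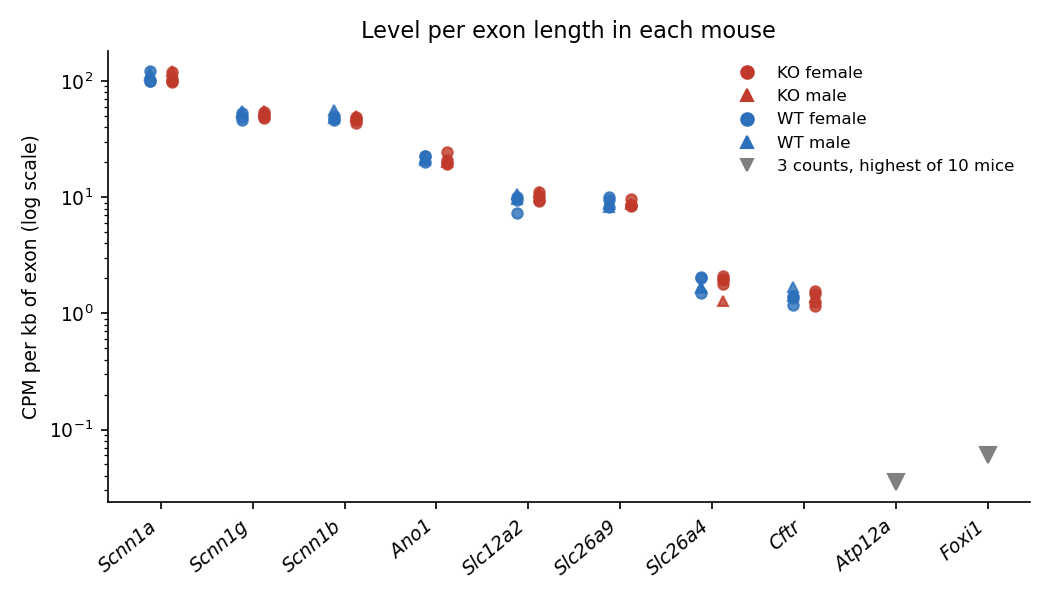
Level of each gene in each mouse, in CPM per kb of exon on a log axis, with KO mice in red, WT mice in blue, females as circles and males as triangles; grey triangles mark 3 counts in the mouse where that limit was highest, for the 2 genes not detected. Scnn1a lies highest at 97.8 to 122 CPM per kb and Cftr lowest of the detected genes at 1.15 to 1.68.

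The absorptive side came from ENaC. Of its genes, Scnn1g (chromosome 7, 121734479 to 121768475, plus strand) and Scnn1b (chromosome 7, 121865038 to 121918514, plus strand), are neighbours 96562 bases apart, while Scnn1a lies on chromosome 6 (125320659 to 125344943, plus strand). The 250 bases before the start of each neighbour are shown because these genes sit side by side on the same strand at overlapping levels (RefSeq sequences, GRCm38.p6, 5′ to 3′). Capitals mark GGGCGG, the GC box, or its reverse complement CCGCCC.
Scnn1g, chr7:121734229-121734478, plus strand: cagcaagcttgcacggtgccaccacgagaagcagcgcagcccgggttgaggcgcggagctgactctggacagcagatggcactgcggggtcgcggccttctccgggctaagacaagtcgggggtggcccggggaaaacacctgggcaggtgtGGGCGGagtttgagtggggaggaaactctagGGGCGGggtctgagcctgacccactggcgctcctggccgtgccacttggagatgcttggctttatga
Scnn1b, chr7:121864788-121865037, plus strand: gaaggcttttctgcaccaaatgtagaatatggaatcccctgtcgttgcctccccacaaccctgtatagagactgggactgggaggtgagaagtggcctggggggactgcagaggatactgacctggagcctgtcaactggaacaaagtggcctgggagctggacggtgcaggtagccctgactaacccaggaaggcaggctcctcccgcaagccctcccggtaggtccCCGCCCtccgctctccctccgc

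The window of Scnn1g held 2 such matches with a GC content of 65.2%, and that of Scnn1b held 1 with a GC content of 60.8%. Either strand of GGGCGG occurred in 32.7% of 32851 promoter windows of the same length, and in 5 of the 7 genes of the set that the RefSeq table holds. Neither window held TGTTCT, one arm of the element that steroid receptors bind, which occurred on either strand in 16.1% of windows. The forkhead core TGTTTA (12% of windows) and TGACG, part of the cAMP response element (17.8%), were absent from the windows of all 7 genes. Such letters describe the sequence and say nothing of binding.

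Scnn1a measured 502, 412, 404, 433 and 495 CPM in KO replicates 1 to 5 and 415, 483, 462, 502 and 411 CPM in WT replicates 1 to 5. Values of the other genes follow in the same order of mice. Each genotype held both high mice, up to 502 CPM, and low mice, down to 404 CPM. As log2 fold change of KO against WT this gave 0.01 (SE 0.07, 95% interval -0.15 to 0.17; edgeR adjusted p 0.965). In percent, the interval runs from -9.77% to 12.3%, and without KO replicate 5 the log2 fold change was -0.033.

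Scnn1g, the gamma subunit, gave 165, 146, 143, 156 and 161 CPM in the KO group and 139, 165, 158, 159 and 147 CPM in the WT group. Group means were 154 ± 9.27 and 154 ± 10.4 CPM (n = 5 each). The log2 fold change was 0.03 (SE 0.05, edgeR adjusted p 0.83), and 0.008 without KO replicate 5. Scnn1b, the beta subunit, gave 133, 114, 121, 125 and 130 CPM in the KO group and 124, 147, 127, 121 and 133 CPM in the WT group. Its highest value, in WT replicate 2, came from the mouse with the highest club marker sum, 31876 CPM, and its lowest from KO replicate 2, where that sum was 24514 CPM. Other mice went the opposite way: the lowest club sum, 24385 CPM, was in KO replicate 5 with 130 CPM of Scnn1b, and KO replicate 1, at 25002 CPM, had 133 CPM of Scnn1b. The club sum came mostly from Scgb1a1, at 21139 to 27533 CPM. Another club marker, Cyp2f2, was the gene closest to Scnn1b over the mice (r 0.93, listed below). The part of club cells in Scnn1b was not tested. The log2 fold change of Scnn1b was -0.05 (SE 0.06, edgeR adjusted p 0.723), an interval of -11% to 5.42%. It was -0.066 without KO replicate 5. Scnn1b spans part of Cog7 on the minus strand without sharing an exon with it.

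The proportions of the subunits varied little between mice. Per exon length, Scnn1a made up 52.2% ± 1.53 of the ENaC RNA, Scnn1b 23.2% ± 1.35 and Scnn1g 24.6% ± 0.576 (n = 10). The Scnn1a share was 52.3% ± 1.28 in KO and 52.1% ± 1.89 in WT mice. On the CPM scale, Scnn1a was 2.93 ± 0.133 times Scnn1g, from 2.77 in KO replicate 4 to 3.15 in WT replicate 4.

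Scnn1a and Scnn1g were high or low in the same mice. Over the 10 mice, Pearson's r of their log2 CPM was 0.90 (permutation p 0.00088, adjusted p 0.025 over 28 pairs of the 8 tested genes) and Spearman's rho was 0.83 (permutation p 0.0048, adjusted p 0.13). Pearson's r was 0.89 without the 2 mice farthest from the median of Scnn1a (KO replicate 1 and WT replicate 4), 0.89 without KO replicate 5, 0.86 in the 7 females, and 0.87 after genotype and sex were removed. The mice did, however, leave a gap in Scnn1g: 4 of them (KO replicates 2 and 3, WT replicates 1 and 5) had 139 to 147 CPM of Scnn1g and 404 to 415 CPM of Scnn1a, and the other 6 had 156 to 165 and 433 to 502 CPM. Within those 6, r was 0.66, and within the 4, whose Scnn1a hardly differed, it was -0.22. A split on Scnn1g itself narrows its range and can lower r within each part whatever the relation. These values therefore cannot tell whether the pooled r rests on a step between the sets of mice. Both genotypes occur on either side of the gap, and the 3 males all lie above it. Scnn1b, the neighbour of Scnn1g, followed it less closely (r 0.58, permutation p 0.067, adjusted p 0.36), and r dropped to 0.38 without KO replicate 2 and WT replicate 2. That these correlations differ from each other was not tested. No pair other than Scnn1a with Scnn1g passed the adjustment.

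**Figure D2:**
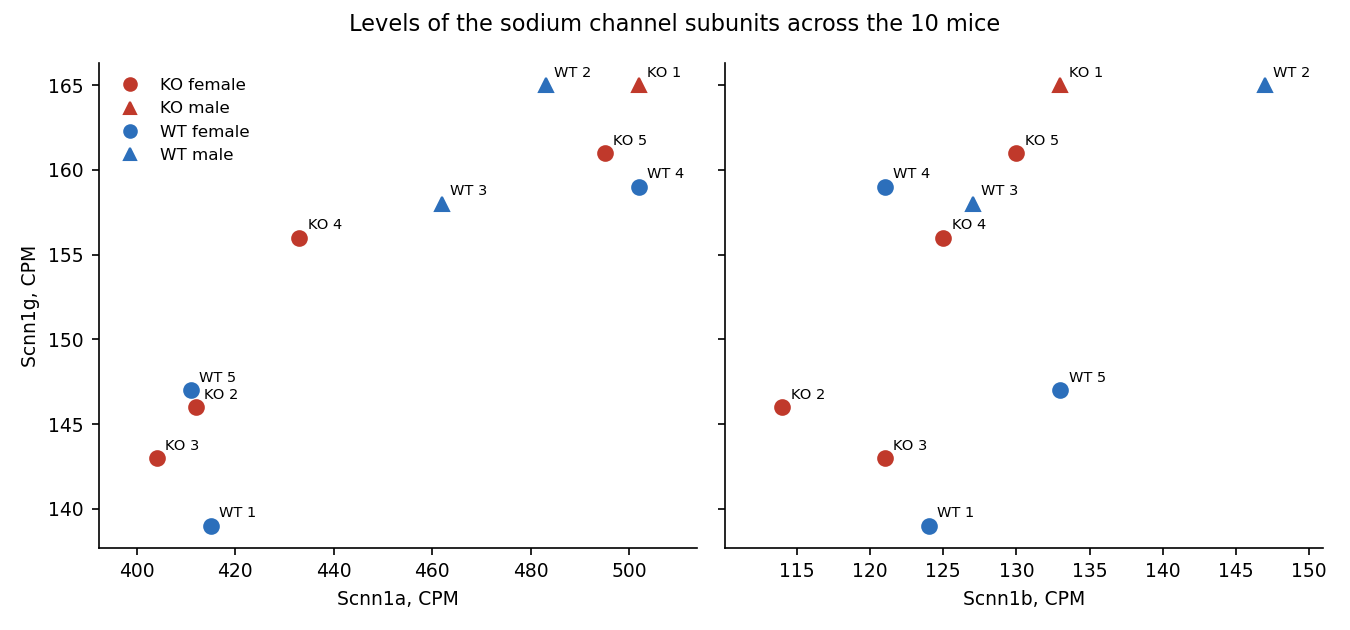
Scnn1g against Scnn1a (left) and against Scnn1b (right), in CPM on axes that do not start at 0, 1 point per mouse, with KO in red, WT in blue, females as circles and males as triangles. At left, 4 mice lie at 139 to 147 CPM of Scnn1g and 6 at 156 to 165 CPM; at right the points scatter more widely.

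On the secretory side, no channel or exchanger passed the test between genotypes. Cftr (chromosome 6, 18170687 to 18322768, plus strand), the chloride and bicarbonate channel mutated in cystic fibrosis, measured 10.7, 8.94, 9.71, 11.3 and 12.2 CPM in the KO group and 9.12, 10.9, 13.1, 10.5 and 10.9 CPM in the WT group. Every mouse carried between 201 and 325 Cftr counts, and the KO values lay within or just below the WT range. KO against WT, its log2 fold change was -0.01 (SE 0.10; edgeR adjusted p 0.977), an interval of -14.8% to 15.9%, and without KO replicate 5 it was -0.071 (edgeR adjusted p 0.783). An antisense gene on the opposite strand, Gm15592, shares exonic sequence with Cftr and had 3 to 9 counts per mouse. Whether counting used strand is not stated, so reads of the 2 genes may be mixed to that small extent.

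Ano1 (chromosome 7, 144588549 to 144751974, minus strand), the calcium-activated chloride channel of secretory epithelium and smooth muscle, measured 125, 120, 122, 130 and 153 CPM in the KO group and 140, 130, 135, 126 and 141 CPM in the WT group. Of the 5 KO values, 3 lay below every WT value, and KO replicate 5 lay above all of them. For Ano1 the log2 difference, KO minus WT, was -0.06 (SE 0.07; edgeR adjusted p 0.712), and it was -0.115 without KO replicate 5 (edgeR adjusted p 0.385). That mouse, at 1105 CPM, had the highest summed smooth muscle markers of the KO group (892 to 1105 CPM, WT 900 to 1241 CPM). It also had the highest goblet and gland markers of all 10 mice, at 352 CPM. Its fibroblast (2779 CPM), basal (3.6 CPM) and cartilage (3.04 CPM) marker sums were the highest of all mice too. Its club (24385 CPM), macrophage (399 CPM), ionocyte (104 CPM) and mesothelial (121 CPM) sums were the lowest. The goblet and gland list includes Bpifb1 itself, at 0.217 to 1.26 CPM in KO and 28.1 to 79.6 CPM in WT mice. It also includes Clca1, at 24.2 CPM in KO replicate 5. The part of any of these marker sets in the Ano1 level of that mouse was not tested.

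Slc26a9 (chromosome 1, 131744022 to 131771504, plus strand), a chloride channel that is active alongside CFTR, measured 45.5, 44.3, 44.7, 45 and 50.5 CPM in the KO group and 42.7, 45.5, 43.4, 49.6 and 52.6 CPM in the WT group. In KO, 4 mice sat within 44.3 to 45.5 CPM with KO replicate 5 above them. Its log2 fold change was -0.04 (SE 0.06; edgeR adjusted p 0.8). Slc26a4 (chromosome 12, 31519827 to 31559969, minus strand), the exchanger pendrin, was the most variable of the 8 genes. It measured 3.94, 5.58, 6.04, 6.51 and 6.2 CPM in the KO group and 6.26, 5.29, 5.1, 6.34 and 4.66 CPM in the WT group, from 100 to 157 counts. For pendrin the log2 difference was -0.04 (SE 0.12, edgeR adjusted p 0.897), an interval of -18.9% to 16.5%, the widest of the set downward. The difference was -0.061 without KO replicate 5.

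Slc12a2 (chromosome 18, plus strand), the cotransporter that loads cells with chloride, had the largest estimate of the set. It measured 122, 112, 102, 104 and 121 CPM in the KO group and 79.3, 106, 116, 103 and 110 CPM in the WT group. The genotypes overlapped, with 1 low WT mouse (replicate 1). Its log2 fold change was 0.16 (SE 0.08, 95% interval -0.02 to 0.34; unadjusted p 0.0761 and adjusted p 0.344 in edgeR). Without WT replicate 1 the log2 fold change was 0.073 and the edgeR adjusted p 0.7, and without WT replicate 5 they were 0.223 and 0.24. Without KO replicate 5 they were 0.125 and 0.525.

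**Figure D3:**
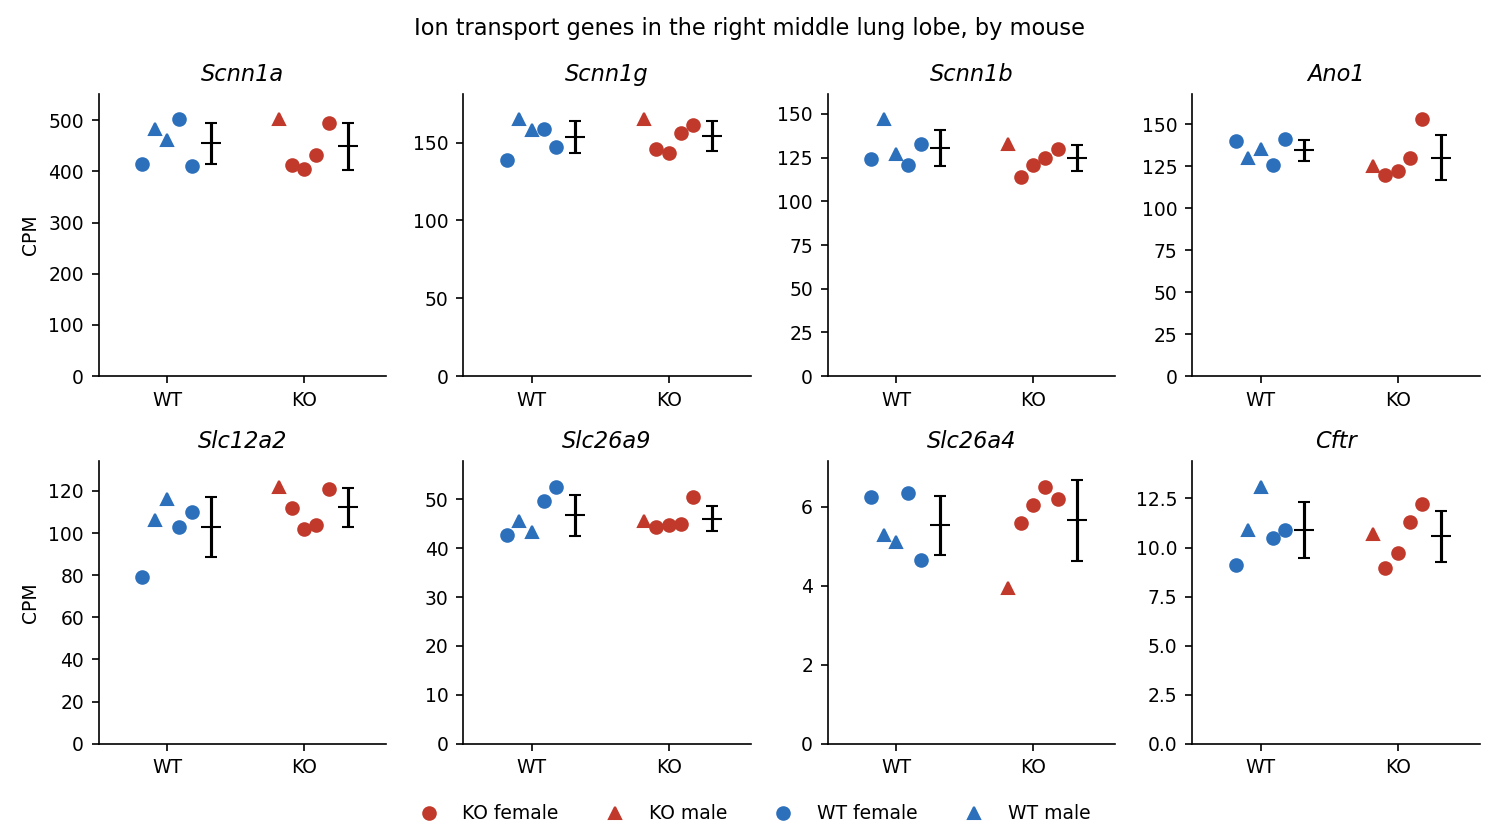
CPM of the 8 tested genes in every mouse, WT in blue at left and KO in red at right of each panel, females as circles and males as triangles, with bars for the mean and SD of each genotype; all axes start at 0. The genotypes overlap in every panel, and the lowest Slc12a2 value is 79.3 CPM in a WT female.

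Across the set, 0 of the 8 tested genes passed an adjusted p of 0.05 in edgeR's quasi-likelihood test between genotypes, against 0.0222% of all 18024 tested genes. At an unadjusted p under 0.05 the count was also 0 of 8, against 17.0% of all genes, 8.92% higher and 8.04% lower in KO mice. Without WT replicate 5 it was 1 of 8, Slc12a2 at an unadjusted edgeR p of 0.0198, against 2924 of 18125 genes. In 0 of 8 genes did the CPM ranges of the genotypes separate, against 1.88% of all genes. The DESeq2 Wald test called 0 of 8 as well, against 346 of all 18024 genes. Without KO replicate 5, edgeR again called 0 of 8, against 2 of 18094 genes. With so few calls over all genes, a count of 0 says little about these 8. Log2 fold changes were positive in 3 genes and negative in 5, with a median of -0.02 and a median size of 0.04, beside -0.00 and 0.10 over all tested genes. The 95% intervals of the main fit, each for 1 gene taken alone, bound the change in RNA of the whole lobe. The largest change that an interval still contains is 1.27-fold, for Slc12a2, and for the 3 ENaC genes it is 1.11- to 1.12-fold. A change confined to some cells of the lobe could be larger.

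These bounds follow from each estimate and its standard error, to which the spread over mice contributes. The SD of log2 CPM over the 10 mice was 0.09 for Scnn1g, 0.10 for Scnn1b and Slc26a9, 0.11 for Ano1, 0.13 for Scnn1a, 0.17 for Cftr, 0.18 for Slc12a2 and 0.23 for Slc26a4. The median over all tested genes was 0.15, so 5 of the 8 genes varied less than the median gene and 3 more. The labels do not state separate litters, so p-values measure the spread between these mice only.

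Sex, the other label that differed between mice, also gave no call in the set. With genotype as a covariate, 0 of 8 genes passed an adjusted p of 0.05 in edgeR, against 0.583% of all tested genes. One of 8 (12.5%) had an unadjusted p under 0.05, against 15.1% of all genes, of which 7.34% were higher and 7.79% lower in males. This count moved with single mice and with the tool: it was 4 of 8 without KO replicate 5, whose Xist level differed from that of the other females, 3 of 8 without WT replicate 5, 2 of 8 without WT replicate 3 or WT replicate 4 and by the DESeq2 Wald test, and 0 of 8 without KO replicate 1 or WT replicate 1. Over all genes, 2627 of 18094 had an unadjusted p under 0.05 without KO replicate 5 and 2518 of 18125 without WT replicate 5. The all-gene count was 2216 of 18134 without WT replicate 3, 3139 of 18268 without WT replicate 4 and 2475 of 18024 by the DESeq2 Wald test. Without KO replicate 1 it was 1919 of 18132, and without WT replicate 1 it was 2228 of 18254. None of the 8 genes had separate CPM ranges, against 4.81% of all genes. Slc26a4 was the 1 gene: 4.78 ± 0.733 CPM in males (n = 3; 3.94, 5.29 and 5.1) and 5.94 ± 0.637 CPM in females (n = 7; lowest 4.66, median 6.2, highest 6.51), a log2 fold change of -0.33 (SE 0.14, unadjusted p 0.0306, adjusted p 0.278, edgeR). Without the lowest male, KO replicate 1, it was -0.142 (edgeR adjusted p 0.815), and without KO replicate 5 it was -0.317.

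Male estimates for the ENaC genes were all positive and none passed. The log2 fold changes of males against females were 0.14 (SE 0.08) for Scnn1a, 0.12 (SE 0.06) for Scnn1b and 0.12 (SE 0.06) for Scnn1g, with edgeR adjusted p-values of 0.446, 0.391 and 0.361. Without KO replicate 5 they were 0.162, 0.129 and 0.130, with unadjusted edgeR p-values of 0.0467, 0.0561 and 0.0438 and adjusted ones of 0.334, 0.357 and 0.33. Male and female ranges overlapped for each: Scnn1g, for example, was 163 ± 4.26 CPM in males and 150 ± 8.44 CPM in females, the highest female being KO replicate 5 at 161 CPM. Slc12a2 gave 0.18 (SE 0.09; edgeR adjusted p 0.376), or 0.198 without KO replicate 5 (edgeR unadjusted p 0.0458, adjusted p 0.333), and Cftr 0.15 (SE 0.11; edgeR adjusted p 0.565). Slc26a9 at -0.08 and Ano1 at -0.05 were the other negative estimates. The median over the 8 genes was 0.12, beside -0.01 over all tested genes, and the median size 0.13 beside 0.10. An interaction of sex with genotype was not tested, since the KO group held 1 male.

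**Figure D4:**
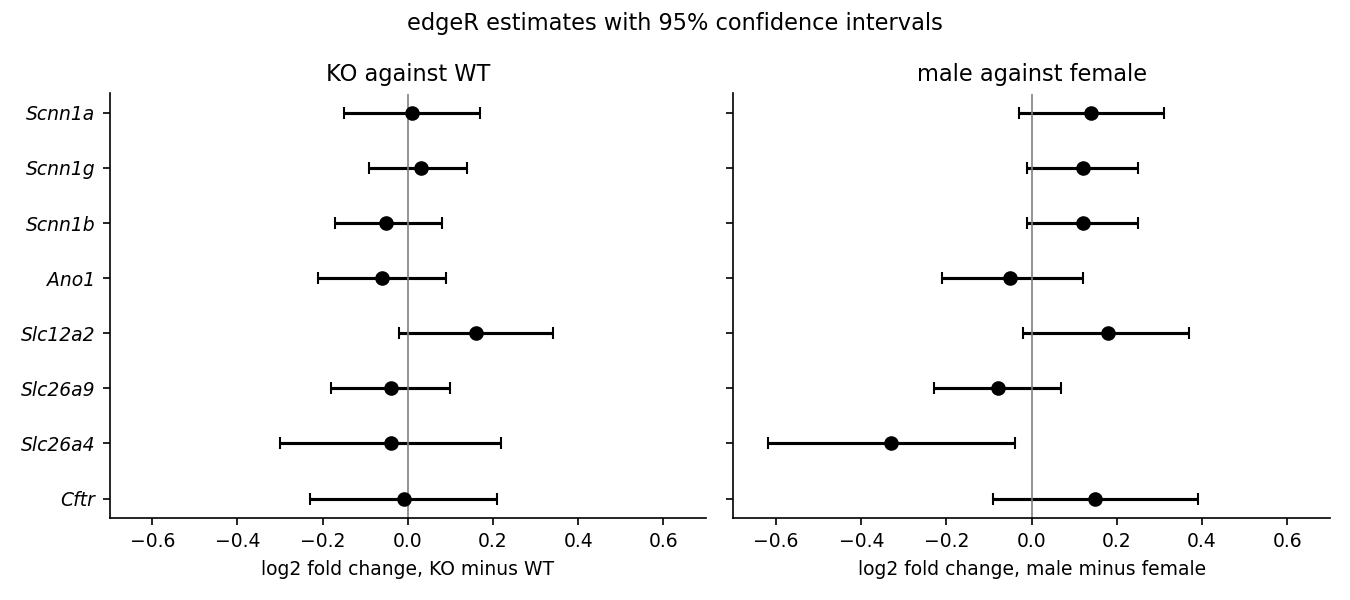
Log2 fold change of each tested gene for KO minus WT (left) and male minus female (right) from edgeR, with 95% confidence intervals. Intervals cross 0 for all 8 genes at left and for all but Slc26a4 (-0.62 to -0.04) at right.

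The surrounding pathway was read from 49 listed genes that act on these channels or beside them, of which 48 could be tested (Slc9a3, a sodium and proton exchanger, had at most 1 count per mouse). Between genotypes 0 of 48 passed the adjustment. At an unadjusted p under 0.05, 5 were higher in KO (10.4%, against the 8.92% of all genes) and 2 lower (4.17%, against 8.04%); together these 7 are 14.6%, below the share of all genes. The median log2 fold change of the list was -0.01. By role, the unadjusted 7 held 2 of 11 ENaC regulators and 2 of 9 genes of the basolateral pump, potassium and bicarbonate transport. Of 8 genes listed with other anion channels and exchangers they held 1, the goblet cell gene Clca1. The rest were 0 of 4 tested carbonic anhydrases and proton exchangers, 1 of 12 regulators of CFTR and NKCC1 and 1 of 4 water channels.

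Nr3c2, the mineralocorticoid receptor through which aldosterone raises ENaC in the kidney, had the smallest p of the list. It measured 25.5, 23.4, 23.2, 20.4 and 21 CPM in the KO group and 18, 14.7, 16.6, 18.3 and 19.6 CPM in the WT group, and it was the 1 gene of 48 (2.08%) whose ranges did not overlap, against 1.88% of all genes. Its log2 fold change came to 0.37 (SE 0.09, unadjusted p 0.000716, adjusted p 0.119, edgeR), and the DESeq2 Wald test gave an adjusted p of 0.017. Without KO replicate 1 the estimate fell to 0.238 (edgeR adjusted p 0.28), and in females alone it was 0.238 (edgeR adjusted p 0.247). These are the same contrast and not separate checks, since KO replicate 1 was the only KO male. Without KO replicate 5 it was 0.399 (edgeR adjusted p 0.196). Spint1, an inhibitor of the serine proteases that cleave ENaC, measured 60.1 ± 4.05 CPM in the KO group and 68.4 ± 3.16 CPM in the WT group (log2 fold change -0.20, SE 0.06; edgeR adjusted p 0.144). Wnk1, a chloride-sensing kinase upstream of NKCC1, measured 481 ± 57.1 and 398 ± 54.4 CPM (0.30, SE 0.09; edgeR adjusted p 0.17). Slc4a4, which brings bicarbonate into the cell, gave 0.23 (edgeR adjusted p 0.219) and the potassium channel gene Kcnq1 -0.16 (edgeR adjusted p 0.222).

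Bpifa1 encodes SPLUNC1, a relative of the missing protein that is known to inhibit ENaC. It measured 151, 59.5, 48.5, 42.7 and 139 CPM in the KO group and 178, 151, 289, 27.4 and 224 CPM in the WT group, with WT replicates 4 and 3 at the ends of the range. The log2 fold change was -0.86 (SE 0.61, 95% interval -2.28 to 0.57; edgeR adjusted p 0.513), the interval spans 0, and the estimate ran from -1.19 to -0.51 over the alternative settings. The widest estimate of the list, 2.45 for the goblet cell gene Clca1 (edgeR adjusted p 0.284), came with KO replicate 5 at 24.2 CPM, against 0.883 to 6.03 CPM in the other KO mice and 0.321 to 1.69 CPM in WT mice, and ran from 1.34 to 2.86 over the alternative settings.

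Between the sexes, 1 of the 48 pathway genes passed (2.08%, against 0.583% of all genes). Kcnn4, a calcium-activated potassium channel that sustains chloride secretion, was lower in males: 4.92, 5.53 and 6.35 CPM against 7.29 to 9.21 CPM in the 7 females (median 8.26). It was 1 of 2 pathway genes with no overlap between sexes (4.17%, against 4.81% of all genes); the other was Nedd4l, at 130 to 139 CPM in males and 107 to 128 CPM in females. The log2 fold change was -0.59 (SE 0.11; edgeR adjusted p 0.024). Leaving out KO replicate 1, KO replicate 2, WT replicate 1 or WT replicate 2 ended the call (edgeR adjusted p 0.204, 0.0505, 0.0579 and 0.0808). Without KO replicate 5 the log2 fold change was -0.589 (edgeR adjusted p 0.042). The next 4 genes did not pass in edgeR: the nucleotide receptor gene P2ry2 at -0.26 (adjusted p 0.165), the ubiquitin ligase gene Nedd4l, whose product removes ENaC from the membrane, at 0.17 (adjusted p 0.197), Kcnq1 at -0.20 (adjusted p 0.199) and the CFTR trafficking gene Gopc at 0.16 (adjusted p 0.215). At an unadjusted p under 0.05, 2 genes were higher in males (4.17%, against 7.34% of all genes) and 6 lower (12.5%, against 7.79%), together 16.7% of the list against 15.1% of all genes.

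**Figure D5:**
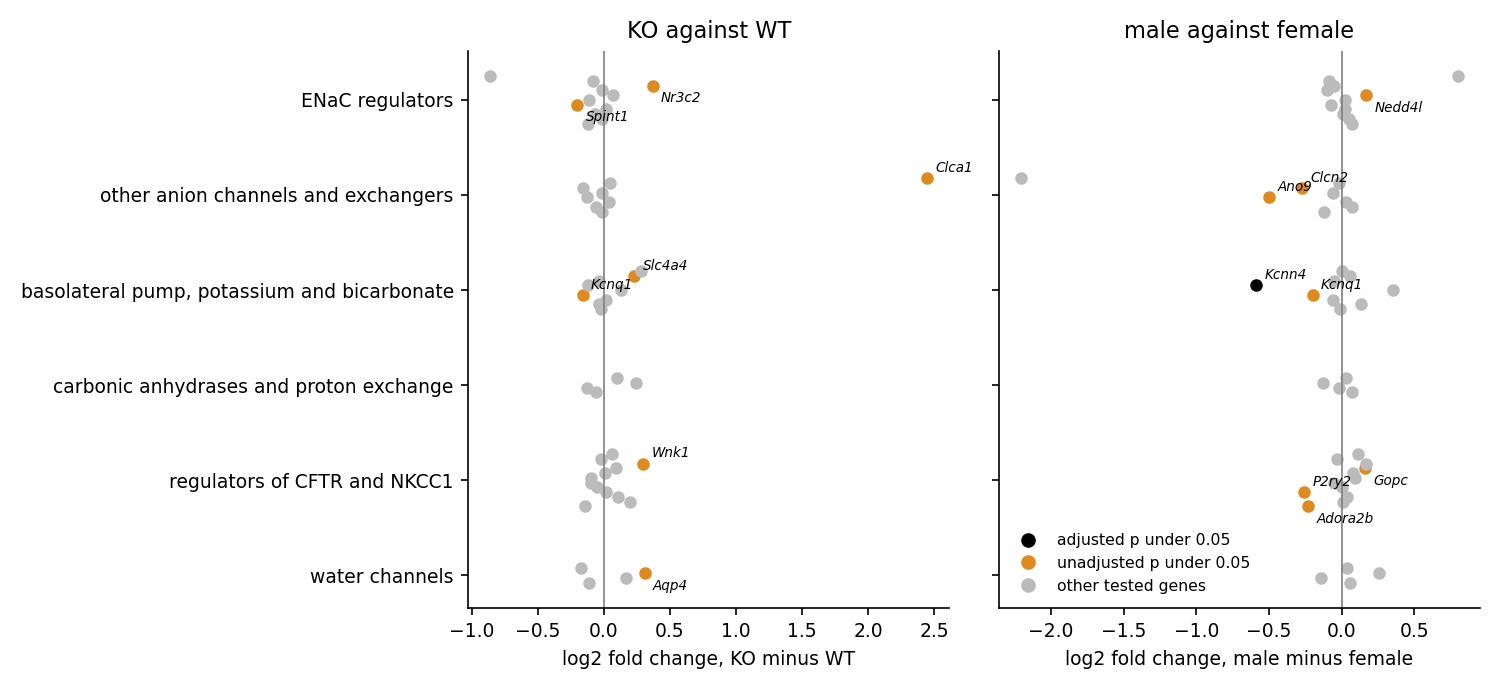
Log2 fold changes of the 48 tested pathway genes, 1 point each, in rows by role, for KO minus WT (left) and male minus female (right; the axes differ in range); black marks an adjusted p under 0.05, orange an unadjusted p under 0.05 and grey the rest, all from edgeR. Kcnn4 at -0.59 is the 1 black point, and Clca1 at 2.45 lies farthest from 0.

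As a description, the genes whose levels over the 10 mice were most like each member were listed by Pearson's r of log2 CPM, 3 per member, out of all tested genes. All come from the same 10 libraries, and each is the highest of 18024 candidates, so no p is given. For Scnn1a they were Wipf3 (0.95), Tmem104 (0.94) and Lmo7 (0.93), and for Scnn1g Ankrd29 (0.93), Slc43a2 (0.92) and Erbb3 (0.92). For Scnn1b the closest was the club cell marker Cyp2f2 (0.93), followed by Wrap53 (0.90) and Creb3l1 (0.89). Ano1 was closest to Itprid1 (0.89), Rapsn (0.87) and Tekt1 (0.86), 1 of the 8 listed ciliated cell markers. The sum of those markers did not follow Ano1 in every mouse. The lowest sum, 1593 CPM in KO replicate 3, came with 122 CPM of Ano1. The highest, 1888 CPM in WT replicate 2, came with 130 CPM, and 1858 CPM in KO replicate 1 with 125 CPM. KO replicate 5, with the highest Ano1 at 153 CPM, had a sum of 1745 CPM. The part of ciliated cells in Ano1 was not tested. Cftr matched Scd4, Il4i1 and Crtc1 (each 0.90), Slc12a2 matched Txlng (0.96), Nlrp12 (0.96) and Kdm1b (0.95), Slc26a9 matched 4632404H12Rik (0.91), Anln (0.89) and Ddhd1 (0.88), and Slc26a4 matched Gm11626 (0.92), Krba1 (0.92) and Rpap1 (0.91).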

How the data were processed

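RNA from the right middle lung lobe of 5 KO and 5 WT mice was measured. A single table deposited by the authors gives estimated counts of 47333 genes. Per the labels' protocols, libraries were made with a KAPA stranded mRNA kit and read as single reads of 50 bases. The submitters' processing notes name FastQC, MultiQC, STAR 2.6.0, Salmon 0.9.1, mm10 and GRCm38, with no role or order; of the values above 0, 30.1% were over 0.01 away from whole. Counts were rounded. Of the identifiers, 47281 matched GENCODE M21 (GRCm38), the source of coordinates and union exon lengths; 52 did not and held 0.00668% of counts. Unused columns numbered 0.

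Main fit: edgeR 4.0.16 (R 4.3.3), TMM scaling, filterByExpr (minimum count 10, minimum total 15; 18024 genes kept), robust quasi-likelihood test, genotype plus sex, two-sided, Benjamini-Hochberg over all genes tested, called at an adjusted p under 0.05. Standard errors are the absolute log2 fold change over the square root of F. Correlations used log2 CPM (prior count 2) and 100000 two-sided permutations. In each mouse 3 counts equalled 0.104 to 0.143 CPM. The alternatives were DESeq2 size factors, no filter, a mean CPM of at least 1, no covariate, females alone, the DESeq2 1.42.0 Wald test, limma-voom (limma 3.58.1), no robust dispersion and each mouse left out.

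Members, pathway genes and markers were chosen with earlier results of these data known. Named genes are all members, Bpifb1, Bpifa1, each called pathway gene, the 5 pathway genes with the smallest p per comparison and the 3 genes most like each member. Clca1, Slc9a3, Xist and the marker genes given with values were singled out after their values were seen.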

Additional observations from a re-analysis of the deposited data

Results flagged for a closer look

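Slc26a9 in KO replicate 5, at 50.5 CPM, stood apart from the other 4 KO mice at 44.3 to 45.5 CPM; the gap was 0.82 of the range of the group. In WT, 2 mice, at 49.6 and 52.6 CPM, lay at a like level. Of 33 sets of values examined in this way 1 was picked out, where chance alone would pick about 1.65. Without KO replicate 5 the log2 fold change of Slc26a9 between genotypes was -0.068 (edgeR adjusted p 0.66).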

How the results depend on the processing

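Across 18 alternatives, 0 of the 8 tested members were called between genotypes (144 values, lowest adjusted p 0.24) and across 17 alternatives 0 between sexes (136 values, lowest adjusted p 0.14). The direction of the sex estimates held in all 136 values, and that of the genotype estimates turned in 18, all for estimates near 0. Cftr turned to 0.049 in females alone and ranged from -0.071 to 0.049 with 1 mouse left out. Leaving out KO replicate 1, the only KO male, gives the same genotype contrast as females alone. Slc26a4 turned to 0.033 without the covariate and 0.085 in females alone (-0.16 to 0.085 with 1 mouse left out), and Scnn1a to -0.016 and -0.022 (-0.033 to 0.082). With 1 mouse left out, Slc26a9 ran from -0.088 to 0.011, Scnn1g from -0.002 to 0.064, and Nr3c2 in the sex comparison from -0.248 to 0.044.

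Counts over all genes moved more. Between genotypes edgeR called 4 genes, 50 without a filter, and DESeq2 called 346, limma-voom 2, and edgeR 2 to 18 with 1 mouse left out; 1 of them in the pathway list under DESeq2 (Nr3c2) against 0. Of those calls, higher in KO were 31 of 50, 253 of 346 and 0 of 2. Between sexes edgeR called 105 genes, 197 without a filter, 41 without the covariate, and DESeq2 436; edgeR called 0 to 195 with 1 mouse left out, the 0 without KO replicate 1, where 1919 genes had an unadjusted p under 0.05. Higher in males were 128 of 197, 37 of 41 and 279 of 436. The pathway count of 1 fell to 0 without the covariate (Kcnn4, log2 fold change -0.564, edgeR adjusted p 0.0555) and was 0 to 1 with 1 mouse left out. The cause of these shifts was not tested.

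No paired analysis was possible because replicate numbers follow sample order and pair no mice. Depth limits Foxi1 and Atp12a to the bounds given. The tested member with the fewest counts, Slc26a4, rests on 100 to 157 counts per mouse. The 3 males, 1 of them KO, limit the sex comparison.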
